A study of Rattus norvegicus with 24 samples.

Results

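The genes described here are 10 regulators of G-protein signalling: Rgs2, Rgs3, Rgs4, Rgs5, Rgs7, Rgs8, Rgs9, Rgs10, Rgs14 and Rgs16. Each was taken as the locus of the deposited count table that carries the gene's name, and where a name had several loci the one selected by measured values was that with the highest mean over the 24 libraries. Rgs9 was the only member with more than 1 locus: the selected locus had a mean of 249.3 normalized counts, and the other, which lies over it, a mean of 5.50. The members are 10 of 26641 loci with a gene name. They were proposed with earlier results of these data known, so the tests describe these rats and are not independent evidence of a response of the family.

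Messenger RNA was sequenced from the perilesional cortex (the cortex around the lesion) and the ipsilateral thalamus (the thalamus of the injured side) of adult male Sprague-Dawley rats. The tissue was taken 3 months after traumatic brain injury (TBI) or a sham operation, with 6 TBI and 6 sham-operated rats and both regions from every rat, which gave 4 groups of 6 libraries. TBI was a lateral fluid-percussion injury, in which a pulse of fluid strikes the exposed dura, and sham-operated rats had the anaesthesia and the surgery without the impact. The study used magnetic resonance imaging to pick out TBI rats with an enhanced signal around the lesion, which it read as inflammation there. It states that the sequenced TBI rats were selected for chronic inflammation, so the changes after TBI below describe such rats.

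Receptors coupled to G proteins load GTP onto a G protein alpha subunit, which then splits from its beta and gamma subunits and acts on enzymes and channels. RGS proteins speed up the hydrolysis of that GTP by the alpha subunit and so shorten the signal. The R4 subfamily (here Rgs2, Rgs3, Rgs4, Rgs5, Rgs8 and Rgs16) consists mostly of small proteins with little beside the RGS domain, the R7 subfamily (Rgs7 and Rgs9) works in a complex with the beta subunit Gnb5, and the R12 subfamily holds Rgs10 and the larger scaffold Rgs14. In the brain most of them are known from neurons, Rgs5 also from pericytes and Rgs10 also from microglia.

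The libraries held between 30568903 and 54608897 fragments. Regional markers separated the regions: the summed normalized count of 12 thalamic neuron markers was 87386 to 156110 in thalamus libraries and 4982 to 6320.1 in cortex libraries. Cortical neuron markers, also 12, summed to 95086 to 116416 in the cortex and 16845 to 31622 in the thalamus. Choroid plexus markers summed to between 11262 and 259961 in 6 libraries (TBI rat 45 in both regions, sham rats 26 and 34 in the cortex, sham rats 34 and 50 in the thalamus) and to at most 2570.4 in the other 18. Striatal markers stood high in the cortex library of TBI rat 24, at 32739, and in the thalamus library of sham rat 26, at 20306. Where leaving out these 8 libraries ended or added the call of a member or pathway gene named below, this is said beside the result. In tissue like this, fewer cells of a type and less RNA per cell cannot be told apart.

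In the perilesional cortex, 5 of the 10 regulators passed the test after TBI. Rgs3 and Rgs16 rose, and Rgs2, Rgs4 and Rgs7 fell. The test was limma with Benjamini-Hochberg adjustment over all 15493 loci tested, at an adjusted p under 0.05. Among all these loci 14.3% were called higher and 14.9% lower. The values of TBI and sham-operated rats did not overlap for 4 members (Rgs3, Rgs4, Rgs7 and Rgs16), against 12.5% of all loci. The median log2 change was 0.023 over the members and -0.0096 over all loci. With the 8 libraries left out, 6 members were called, Rgs8 being added as lower.

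In the ipsilateral thalamus, 7 of the 10 passed. Rgs5 and Rgs10 rose, and Rgs3, Rgs4, Rgs7, Rgs8 and Rgs16 fell. Of the 15564 loci tested there, 14.5% were called higher and 20.9% lower, which is 2259 and 3257 loci. Scaling the libraries by trimmed means (TMM) turned that split to 2796 higher and 2357 lower, and scaling by the upper quartile to 2659 and 2421, while every call and direction of the 10 members was kept under both. For 5 members (Rgs3, Rgs7, Rgs8, Rgs10 and Rgs16) the groups did not overlap, against 18.2% of all loci. The median log2 change was -0.41 over the members and -0.023 over all loci. With the 8 libraries left out, 8 members were called, Rgs9 being added as lower. Sham rats 32 and 38, which were kept, still had higher striatal marker sums than any TBI thalamus library. The shares of all loci called in each region are the background for the counts of genes called after TBI below.

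**Figure D1:**
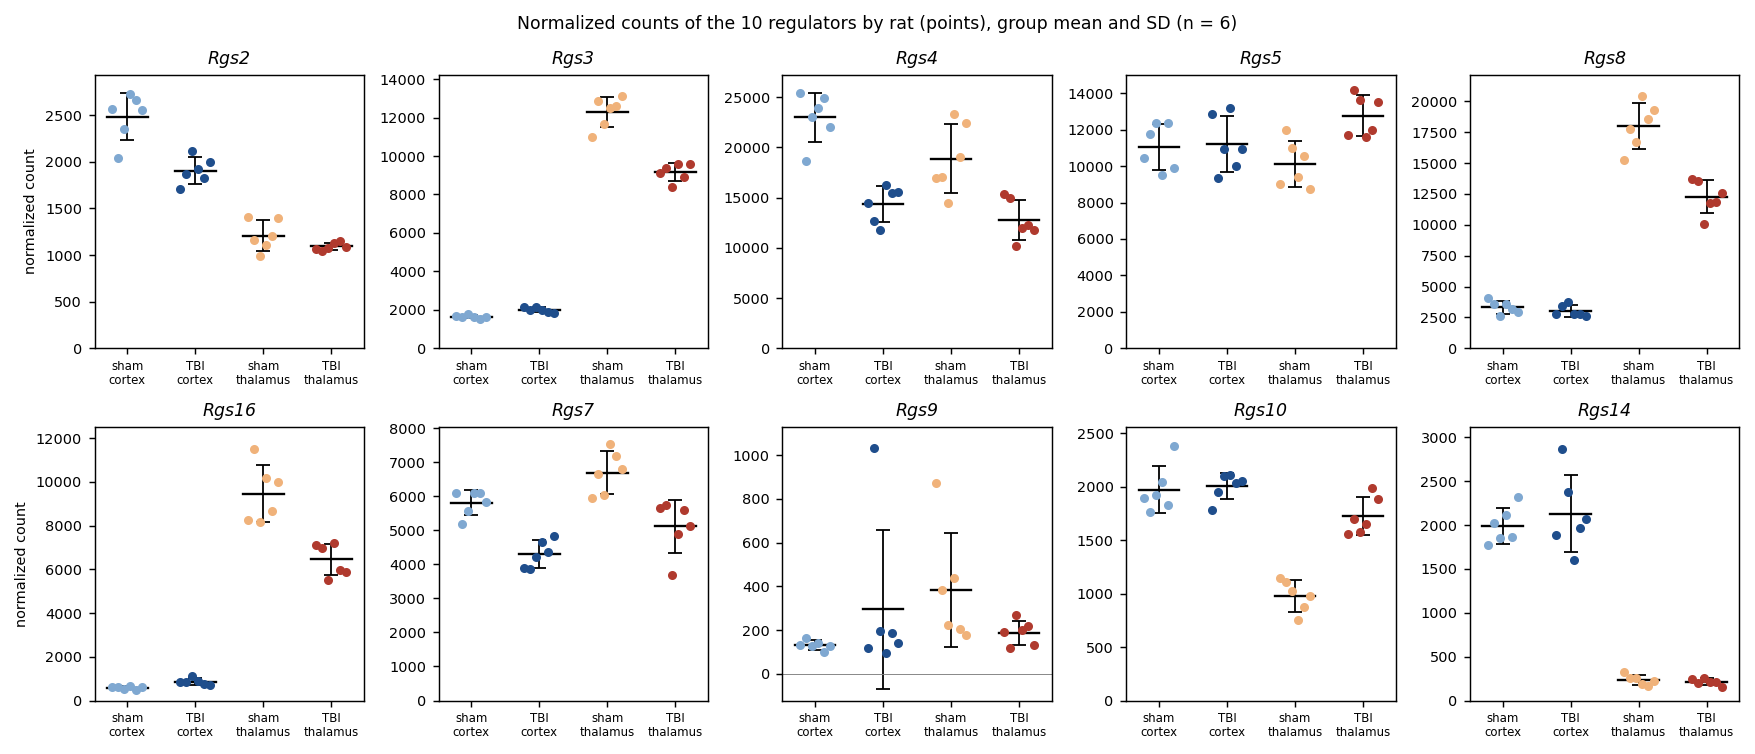
Normalized counts of the 10 regulators in each rat (vertical axis, from 0 except for Rgs9, where the SD bar runs under 0), by group (horizontal axis). Points are rats, black lines are group means and bars 1 SD (n = 6). Rgs3, Rgs8 and Rgs16 stand high in the thalamus and lower there after TBI, while 1 TBI cortex library reaches 1031 for Rgs9.

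Rgs4, which limits Gi and Gq signalling and is abundant in cortical neurons, fell in both regions. In the cortex it ranged from 18619.7 to 25376 normalized counts in sham-operated rats (median 23454) and from 11739 to 16306 in TBI rats (median 14961). Every TBI rat was below every sham-operated rat. The log2 change was -0.68 ± 0.088 (SE, adjusted p = 8.34e-05). In the thalamus the ranges were 14471.5 to 23294 in sham-operated rats (median 18063) and 10232 to 15359 after TBI (median 12087). Only the lowest sham-operated rat, rat 34, lay within the TBI values. The log2 change there was -0.56 ± 0.12 (adjusted p = 0.00277). Leaving out the 8 libraries gave -0.53 in the cortex and -0.66 in the thalamus, both still called.

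Rgs2, an inhibitor of Gq signalling whose gene is switched on quickly by neuronal activity, fell in the cortex. Its values there were 2041 to 2729.7 in sham-operated rats (median 2557) and 1708 to 2119 in TBI rats (median 1893). The groups overlapped through sham rat 32 alone, which lay under the highest TBI rat. The log2 change was -0.38 ± 0.072 (adjusted p = 0.00138). In the thalamus Rgs2 spanned 984 to 1412 in sham-operated rats (median 1181) and 1047 to 1153 in TBI rats (median 1079). The TBI values fell inside the sham range, and the change of -0.14 ± 0.080 did not pass the test (adjusted p = 0.211).

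Rgs3, which accelerates GTP hydrolysis by Gi and Gq alpha subunits, moved in opposite directions in the 2 regions. In the cortex sham-operated rats had 1521 to 1777 normalized counts (median 1638) and TBI rats 1856 to 2165 (median 1991). All 6 TBI rats were above all 6 sham-operated rats, with a log2 change of 0.28 ± 0.053 (adjusted p = 0.00128). In the thalamus sham-operated rats had 11009 to 13114 (median 12559) and TBI rats 8404 to 9608 (median 9240.5). There all 6 TBI rats were below all 6 sham-operated rats, with a log2 change of -0.42 ± 0.052 (adjusted p = 3.72e-05).

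Rgs16, a Gi and Gq regulator, showed the same pattern as Rgs3. Its cortical values were 485 to 663 in sham-operated rats (median 619) and 692 to 1144 in TBI rats (median 840.0), without overlap. The log2 change was 0.53 ± 0.11 (adjusted p = 0.00228). In the thalamus the values were 8180.4 to 11484 in sham-operated rats (median 9332) and 5530.4 to 7223 in TBI rats (median 6481), again without overlap but with TBI lower. The log2 change was -0.55 ± 0.093 (adjusted p = 0.000443). Leaving out the 8 libraries kept both genes called in both regions, at 0.29 and -0.46 for Rgs3 and 0.41 and -0.67 for Rgs16.

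Rgs8, a Gi regulator first known from Purkinje cells, lies beside Rgs16 on chromosome 13, with 19118 bases between the loci as the files list them. In the thalamus it ranged from 15233 to 20424 in sham-operated rats (median 18179.5) and from 10091 to 13705 in TBI rats (median 12234). The groups did not overlap, and the log2 change was -0.55 ± 0.083 (adjusted p = 0.000177). In the cortex the ranges were 2620.2 to 4030.1 in sham-operated rats and 2626 to 3784 in TBI rats. The TBI values lay inside the sham range, and the change of -0.13 ± 0.11 did not pass (adjusted p = 0.399), whereas without the 8 libraries it was -0.27 (adjusted p = 0.0348). Rgs8 and Rgs16 thus both fell in the thalamus, while in the cortex Rgs16 rose.

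Rgs5, a regulator long used as a pericyte marker, lies next to Rgs4, with 48060.0 bases between them. It rose in the thalamus, from 8750.1 to 11959 in sham-operated rats (median 9959) to 11601 to 14178 in TBI rats (median 12733). The ranges met through sham rat 32, which was above the lowest 2 TBI rats. The log2 change was 0.34 ± 0.082 (adjusted p = 0.00490). In the cortex sham-operated rats had 9511 to 12383 and TBI rats 9365 to 13194, and the change of 0.017 ± 0.091 did not pass (adjusted p = 0.909). The summed count of 11 mural cell markers was 7756 to 10534 in sham thalamus and 9739 to 15525 in TBI thalamus, with 6 of them called higher and none lower. In the cortex it was 9153 to 11691 against 10452 to 18584, with 4 called higher. The part of mural cells in the Rgs5 result was not tested.

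**Figure D2:**
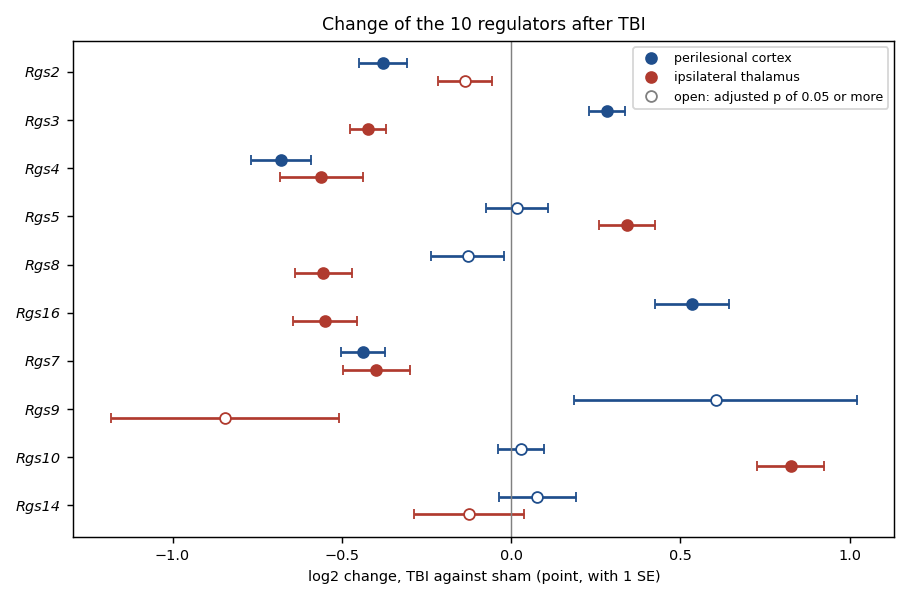
Log2 change after TBI (horizontal axis) of each regulator (vertical axis) in the perilesional cortex (blue) and the ipsilateral thalamus (red), with 1 SE on each side and filled points where the adjusted p was under 0.05. Rgs3 and Rgs16 lie right of 0 in the cortex and left of 0 in the thalamus, and Rgs4 and Rgs7 lie left of 0 in both.

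The stretches of 300 bases around the annotated starts of 2 pairs of members are shown. Rgs2 and Rgs4 both fell in the cortex, as did Rgs7, which is not shown. Rgs3 and Rgs16 both rose in the cortex and fell in the thalamus. They come from RefSeq (assembly GRCr8), which held a start for all 10 members, 1 per gene. Capitals mark 4 motifs found on either strand: TGACG (the core of the cyclic AMP response element), TATAAA (the TATA box), GGGCGG (the GC box) and CCAAT. A match on the other strand appears as the reverse complement of these letters. Rgs2 lies at chr13:58352617-58352916 (minus strand), Rgs4 at chr13:84475835-84476134 (minus strand), Rgs3 at chr5:81093801-81094100 (plus strand) and Rgs16 at chr13:68437870-68438169 (plus strand).
Rgs2: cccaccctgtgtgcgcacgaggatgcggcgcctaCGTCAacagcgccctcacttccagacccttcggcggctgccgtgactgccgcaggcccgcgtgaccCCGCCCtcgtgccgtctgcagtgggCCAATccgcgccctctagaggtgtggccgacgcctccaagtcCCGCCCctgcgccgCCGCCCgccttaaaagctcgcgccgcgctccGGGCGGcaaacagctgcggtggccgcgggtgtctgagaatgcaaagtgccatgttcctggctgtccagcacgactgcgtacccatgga
Rgs4: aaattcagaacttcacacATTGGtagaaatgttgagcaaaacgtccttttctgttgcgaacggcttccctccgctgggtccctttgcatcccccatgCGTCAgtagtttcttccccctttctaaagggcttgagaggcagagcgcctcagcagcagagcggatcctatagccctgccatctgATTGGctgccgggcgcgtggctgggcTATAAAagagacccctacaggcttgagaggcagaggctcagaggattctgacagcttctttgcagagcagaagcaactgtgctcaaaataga
Rgs3: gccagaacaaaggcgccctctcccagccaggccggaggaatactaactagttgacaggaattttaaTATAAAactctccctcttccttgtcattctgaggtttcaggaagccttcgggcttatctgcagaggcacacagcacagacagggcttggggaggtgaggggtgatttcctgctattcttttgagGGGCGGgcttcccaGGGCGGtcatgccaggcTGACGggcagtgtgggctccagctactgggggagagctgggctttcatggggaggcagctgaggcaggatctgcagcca
Rgs16: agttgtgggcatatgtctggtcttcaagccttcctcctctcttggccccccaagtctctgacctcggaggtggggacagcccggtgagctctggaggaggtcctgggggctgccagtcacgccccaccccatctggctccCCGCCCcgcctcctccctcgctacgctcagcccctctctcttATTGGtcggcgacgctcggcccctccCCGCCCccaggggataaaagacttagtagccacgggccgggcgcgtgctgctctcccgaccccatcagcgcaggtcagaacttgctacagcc
TGACG was found in Rgs2, Rgs3 and Rgs4 and in 21.2% of all 33469 rat promoters of this length. The full element TGACGTCA, which contains that core, was found in 0 of the 10 members and in 1.83% of all promoters. TATAAA was found in Rgs3 and Rgs4 (14.2% of all). GGGCGG was found in 7 members (33.1% of all) and CCAAT in 5 (37.5% of all). Of the 4 promoters shown, Rgs3 and Rgs16 share the GC box alone, and Rgs2 and Rgs4 share the response element core and CCAAT. Rgs7, which also fell in the cortex, had neither of these and matched GGGCGG only, while Rgs3, which rose there, also had the core. These are matches of letters and were not tested as sites.

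Rgs7, the most widely expressed R7 member in the brain and a Gi/o regulator, fell in both regions. In the cortex it was 5186 to 6106 in sham-operated rats (median 5967) and 3854 to 4837 in TBI rats (median 4287). In the thalamus it was 5947 to 7536 in sham-operated rats (median 6731) and 3700.5 to 5728 in TBI rats (median 5359). The groups were apart in both regions, with the lowest thalamic value in the TBI library that was rich in choroid plexus markers. The log2 change was -0.44 ± 0.064 in the cortex (adjusted p = 0.000197) and -0.40 ± 0.099 in the thalamus (adjusted p = 0.00618). Leaving out the 8 libraries gave -0.39 and -0.38, both called.

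Rgs9, whose long form is a striatal regulator of dopamine signalling, did not pass in either region and rested on few libraries. In the cortex sham-operated rats had 101 to 165 normalized counts (median 129), and 5 of the 6 TBI rats had 96.5 to 196. The sixth, rat 24, had 1031. In the thalamus 5 sham-operated rats had 178 to 437 and rat 26 had 872, while TBI rats had 120 to 267. The log2 changes were 0.60 ± 0.42 in the cortex (adjusted p = 0.297) and -0.85 ± 0.34 in the thalamus (adjusted p = 0.0650). Without rat 24 the cortical change was 0.13, and without sham rat 26 the thalamic change was -0.56, neither called. The thalamic change was called without TBI rat 45, sham rat 50 or sham rat 55, at up to -1.02 (adjusted p = 0.0342), and without the 8 libraries, at -0.89 (adjusted p = 0.0413). The 2 libraries with the highest Rgs9 were also the highest of their groups for the sum of 10 striatal markers without Rgs9: 32739 in TBI cortex rat 24, against 15770 to 18345 in the other TBI cortex libraries, and 20306 in sham thalamus rat 26, against 9167 to 14727 in the other sham thalamus libraries. In TBI thalamus libraries this sum was 8782 to 10654. Sham rats 32 and 38, kept when the 8 libraries were left out, had sums of 13367 and 14727 in the thalamus. Their Rgs9 values there were 382 and 437, so the thalamic call without the 8 libraries was not freed of this difference. Of 11 striatal markers tested, Rgs9 among them, 6 were called lower in the thalamus and none was called in the cortex. The part of striatal tissue in the Rgs9 values was not tested.

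Rgs10, a small regulator of Gi that is strongly expressed by microglia as well as neurons, rose in the thalamus. It ranged from 749 to 1144 in sham-operated rats (median 999) and from 1556 to 1984 in TBI rats (median 1676), with no overlap. The mean was 1.76 times higher after TBI, and the log2 change of 0.83 ± 0.099 was the largest called change among the 10 members in either region (adjusted p = 2.80e-05). In the cortex sham-operated rats had 1762 to 2378 and TBI rats 1785 to 2107. The TBI values lay inside the sham range, and the change of 0.029 ± 0.069 did not pass (adjusted p = 0.784).

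Microglial markers rose in both regions. The sum of 14 markers was 36701 to 47355 after TBI in the thalamus, against 18239 to 23703 after the sham operation, and 17015 to 18062 in the cortex of sham-operated rats and 24147 to 27161 in that of TBI rats, without overlap in either region. Of 13 markers tested, 13 were called higher in the thalamus and 12 in the cortex, while Siglech was at or under the floor of 3 fragments in all 4 groups. In the thalamus both Rgs10 and these markers were higher after TBI. In the cortex the markers were higher and the Rgs10 groups overlapped. The part of microglia in the Rgs10 result was not tested.

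**Figure D3:**
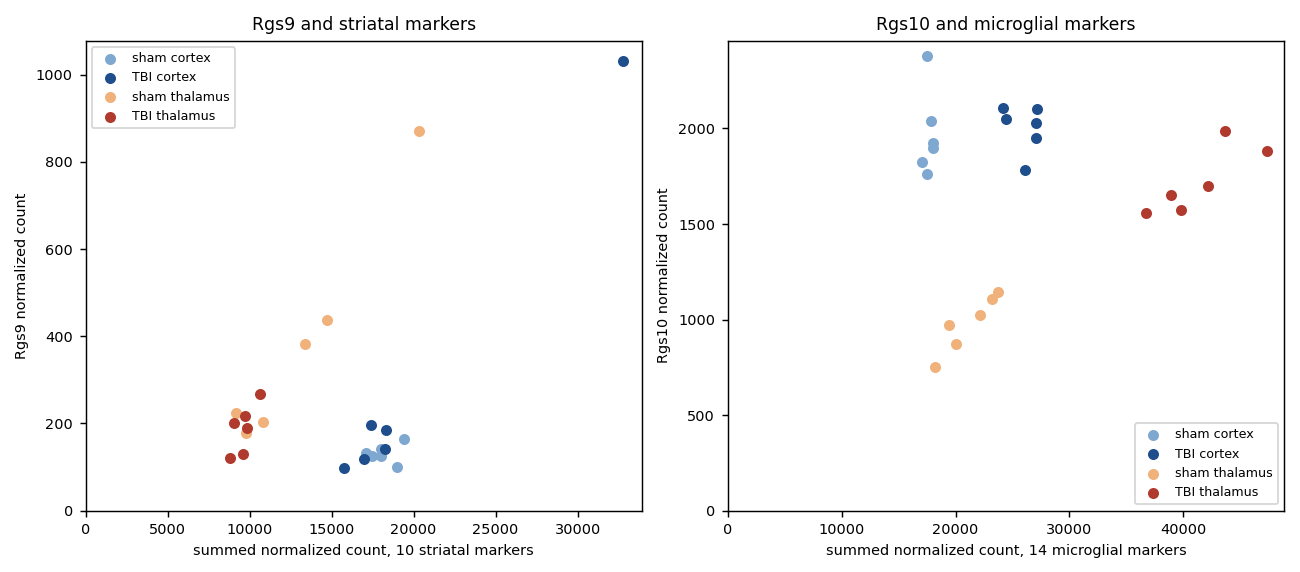
Left, the normalized count of Rgs9 (vertical axis) against the summed count of 10 striatal markers (horizontal axis) in each of the 24 libraries. Right, the same for Rgs10 and 14 microglial markers, with colours for the 4 groups. The highest Rgs9 values, 1031 and 872, sit at marker sums of 32739 and 20306, and TBI thalamus libraries stand above sham thalamus libraries for both Rgs10 and the microglial markers.

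Rgs14, a scaffold of Gi and Ras signalling best known from hippocampal area CA2, did not pass in either region. In the cortex it was 1777 to 2318 in sham-operated rats (median 1943) and 1601 to 2865 in TBI rats (median 2019). The highest value was that of TBI rat 24, whose cortex library also had the highest sum of 10 hippocampal markers of its group, 20982 against 14233 to 16913 in the others. In the thalamus it was 163 to 323 in sham-operated rats (median 239) and 153 to 258 in TBI rats (median 216). The log2 changes were 0.078 ± 0.11 (adjusted p = 0.637) and -0.12 ± 0.16 (adjusted p = 0.590), and without TBI rat 24 the cortical change was -0.013.

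Without injury, 9 of the 10 regulators differed between the regions. In the sham-operated rats Rgs3, Rgs7, Rgs8, Rgs9 and Rgs16 were higher in the thalamus, and Rgs2, Rgs4, Rgs10 and Rgs14 were higher in the cortex. Of the 15582 loci tested, 33.9% were called higher and 28.3% lower in the thalamus, so a difference between the regions was common. The mean of Rgs16 was 16.0 times higher in sham thalamus (9463 ± 1314, SD, n = 6) than in sham cortex (592 ± 67.6), a log2 difference of 3.99 ± 0.093 (adjusted p = 1.45e-14). Rgs3 was 7.46 times and Rgs8 5.43 times higher in the thalamus, with log2 differences of 2.90 ± 0.050 and 2.45 ± 0.096. In the other direction, the mean of Rgs14 was 8.43 times higher in sham cortex (1991 ± 202) than in sham thalamus (236 ± 56.4), at -3.10 ± 0.13 on the log2 scale (adjusted p = 1.31e-11). Rgs2 and Rgs10 were lower in the thalamus by similar amounts, -1.04 ± 0.091 and -1.02 ± 0.099, and for 7 members (Rgs2, Rgs3, Rgs8, Rgs9, Rgs10, Rgs14 and Rgs16) the regions did not overlap, against 43.1% of all loci.

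The remaining regional differences were small or uneven. Rgs9 was higher in the thalamus by 1.31 ± 0.31 (adjusted p = 0.00147), and by 1.03 without sham rat 26. Rgs7 was higher there by 0.20 ± 0.063 (adjusted p = 0.0119). Rgs4 was lower by -0.30 ± 0.11 (adjusted p = 0.0257), but the call was lost when any of 5 libraries was left out (the cortex of sham rats 26 and 50, the thalamus of sham rats 26, 32 and 34), with an adjusted p of up to 0.0603, and without the 8 libraries the difference was -0.10 (adjusted p = 0.544). Rgs5 differed by -0.13 ± 0.087 and did not pass (adjusted p = 0.206). Both regions came from the same rats, and with the rat as a replicate block the same Rgs5 difference was called (adjusted p = 0.0304).

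The order of the 4 groups differed from gene to gene. For Rgs3 and Rgs16 it ran from sham thalamus through TBI thalamus and TBI cortex to sham cortex, and each neighbouring pair was apart, with both TBI groups between the sham groups. For Rgs8 the order was sham thalamus, TBI thalamus, sham cortex and TBI cortex, with only the last pair overlapping. For Rgs10 TBI cortex, sham cortex and TBI thalamus overlapped as neighbours (means of 2004 ± 121, 1970 ± 221 and 1724 ± 174), and sham thalamus stood apart under them at 978 ± 148. For Rgs2 the cortical groups were both above the thalamic ones, and the only neighbours apart were TBI cortex and sham thalamus. For Rgs4, Rgs5, Rgs7 and Rgs9 every pair of neighbours overlapped.

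The injury effect itself differed between the regions for 3 members. The interaction of injury and region was negative for Rgs3 (-0.70 ± 0.071, adjusted p = 7.31e-07) and Rgs16 (-1.08 ± 0.15, adjusted p = 7.11e-05) and positive for Rgs10 (0.80 ± 0.13, adjusted p = 0.000299). Among the 15678 loci tested, 2.72% were called in the positive and 4.54% in the negative direction. Rgs8 did not pass (-0.43 ± 0.14, adjusted p = 0.0725), although with the rat as a replicate block it did (adjusted p = 0.0487), and without sham rat 26 as well (adjusted p = 0.0253). For Rgs2 the interaction was 0.24 ± 0.11 (adjusted p = 0.190), for Rgs4 0.12 ± 0.16 (adjusted p = 0.717) and for Rgs7 0.040 ± 0.12 (adjusted p = 0.891), so a difference between regions in these falls was not detected. Rgs5 (0.32 ± 0.13, adjusted p = 0.130), Rgs9 (-1.45 ± 0.59, adjusted p = 0.136) and Rgs14 (-0.20 ± 0.21, adjusted p = 0.612) did not pass either.

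Neuronal markers fell beside the regulators that fell. The sum of 16 markers ranged in the cortex from 493021 to 524408 after the sham operation and from 368542 to 461968 after TBI. In the thalamus it ranged from 347302 to 404659 and from 232117 to 294318. Of the 16, 11 were called lower in the cortex (median log2 change -0.29) and 13 in the thalamus (median -0.48), with none higher. Over all loci, 14.9% were called lower in the cortex and 20.9% in the thalamus. Of 12 thalamic neuron markers 8 were called lower in the thalamus and none higher, but of the 10 tested in the cortex 5 were higher and 2 lower. Of 12 cortical neuron markers 5 were called lower in the cortex and none higher, and of the 11 tested in the thalamus 1 was higher and 5 lower. Beside these stand the log2 changes of Rgs2, Rgs4 and Rgs7 in the cortex (-0.38, -0.68 and -0.44) and of Rgs3, Rgs4, Rgs7, Rgs8 and Rgs16 in the thalamus (-0.42, -0.56, -0.40, -0.55 and -0.55). The part of neuron number in these changes was not tested.

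By the smallest root mean square difference of centred log2 values over the 24 libraries, among 15678 loci, the genes most like Rgs10 were Bid, a promoter of apoptosis (0.17), and a locus joining GSTA6 and Gsta1, glutathione transferases (0.19). For Rgs4 they were Sgtb, a co-chaperone (0.15), and Cdh18, a cadherin (0.17). For Rgs8 they were Elmo1, an activator of Rac (0.16), and Chrna4, a nicotinic receptor subunit (0.17). These 3 members were those with the largest called changes after TBI, so the likeness is a description.

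Of 11 other RGS genes, 10 had a locus and 9 were tested in the cortex and 8 in the thalamus. In the cortex Rgs1, Rgs11 and Rgs22 rose and Rgs6 fell, and in the thalamus Rgs1 and Rgs12 rose and Rgs6 fell. Rgs1, a regulator of lymphocytes and other immune cells, had 34.8 ± 7.12 normalized counts in sham cortex and 59.0 ± 2.79 in TBI cortex, and 30.6 ± 11.2 in sham thalamus and 120 ± 21.9 in TBI thalamus. Its log2 changes were 0.76 ± 0.14 (adjusted p = 0.00118) and 2.01 ± 0.24 (adjusted p = 2.79e-05). The 12 genes listed as lymphocyte markers included Cd4 and Ptprc. Their summed count was 1055 to 1270.2 after the sham operation and 1743 to 2174 after TBI in the cortex. In the thalamus it was 975 to 1363 and 3129.6 to 5022, with Cd79a at or under the floor in all groups. Most of the 12 were too low to test: 5 were tested in the cortex, with 2 called higher, and 4 in the thalamus, with 3 called higher. None was called lower. The microglial marker sum given above was also higher after TBI in both regions. The part of lymphocytes or microglia in the Rgs1 result was not tested. Rgs6, an R7 member listed in capitals in the files, changed by -0.33 ± 0.046 (adjusted p = 0.000158) and -0.31 ± 0.099 (adjusted p = 0.0269), and its thalamic call was lost under TMM and upper quartile scaling, without TBI rat 24, sham rat 26 or sham rat 32, and without the 8 libraries (-0.22, adjusted p = 0.116). Rgs12, of the same subfamily as Rgs10, changed by 0.39 ± 0.069 in the thalamus (adjusted p = 0.000596). Rgs11 (0.35 ± 0.10) and Rgs22 (1.43 ± 0.23) are named here after their values were seen, and Rgs11 was not called without the 8 libraries (adjusted p = 0.117).

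**Figure D4:**
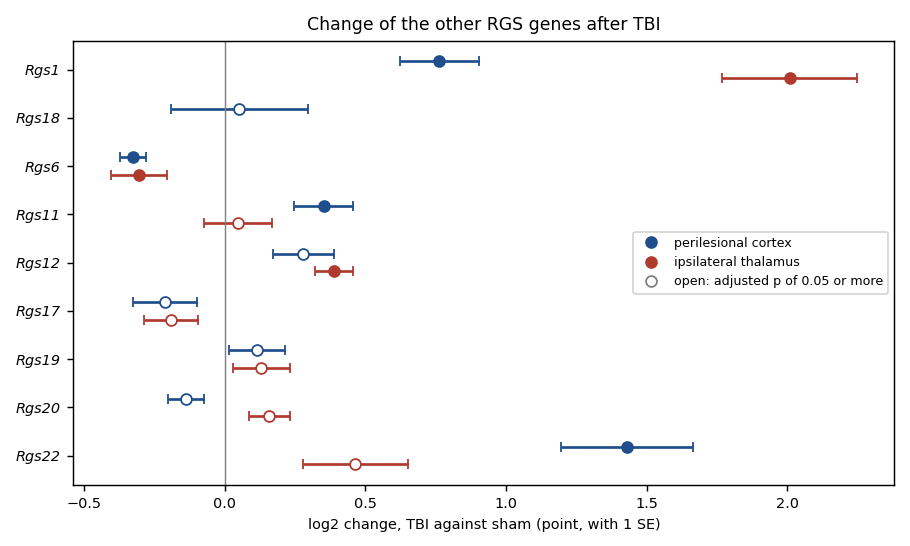
Log2 change after TBI (horizontal axis) of 9 RGS genes outside the 10 members (vertical axis) in the perilesional cortex (blue) and the ipsilateral thalamus (red), with 1 SE on each side and filled points where the adjusted p was under 0.05. Rgs1 lies farthest right in the thalamus, at 2.01, and Rgs6 lies left of 0 in both regions.

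The R7 members did not share a direction: Rgs6 and Rgs7 fell in both regions, Rgs11 rose in the cortex and Rgs9 was not called. Some of their partners fell. Gnb5, the beta subunit that stabilizes the R7 members, changed by -0.17 ± 0.044 in the cortex (adjusted p = 0.0114) and -0.26 ± 0.065 in the thalamus (adjusted p = 0.00684), the cortical call being lost without the 8 libraries (-0.14, adjusted p = 0.155). Gpr158, an orphan receptor that anchors Rgs7 at the membrane, changed by -0.43 ± 0.060 (adjusted p = 0.000151) and -0.35 ± 0.071 (adjusted p = 0.00162). Of 5 genes listed, 3 were tested in the cortex, with none higher and 2 lower, and 4 in the thalamus, with 1 higher and 3 lower. The other thalamic calls, named after their values were seen, were the anchor Rgs7bp (-0.64, adjusted p = 0.00325) and Gpr179 (0.93, adjusted p = 0.0152), whose call was lost in the fit over all libraries (adjusted p = 0.101).

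Alpha subunits of the Gi/o, Gz and Gq classes are the substrates of these regulators, and those of the Gs and G12 classes belong to other receptor pathways. Of 13 alpha subunits of all classes, 4 were called higher (Gna12, Gna13, Gna15 and Gnai2) and 2 lower (Gnai1 and Gnas) in the cortex, against 14.3% and 14.9% of all loci. In the thalamus 6 were higher and 4 lower (Gna11, Gnal, Gnas and Gnaz), against 14.5% and 20.9%. These counts rested on few libraries: 3 were called in the cortex without TBI rat 45 or without the 8 libraries, where Gna13, Gnai1 and Gnas were lost, and 6 in the thalamus without TBI rat 24, where Gna11, Gna14, Gnas and Gnaz were lost. The cortical calls of Gna13 and Gnai1 were each lost in 8 of the 12 fits that left out 1 library. That of Gnas was also lost in the fit over all libraries. Gna11, Gnas and Gnaz in the thalamus were also not called under TMM or upper quartile scaling or without the 8 libraries, nor was Gnai1 in the cortex under either scaling. Gnai2, an inhibitory alpha subunit abundant in immune cells, changed by 0.38 ± 0.065 in the cortex and 0.44 ± 0.054 in the thalamus. Gna15, a Gq-class subunit of blood cells, changed by 0.77 ± 0.15 and 1.34 ± 0.11. Gna12 rose by 0.25 ± 0.055 in the cortex, and Gna14 by 0.98 ± 0.31 in the thalamus, from a mean of 10.4 to 19.8 normalized counts, with the call lost without TBI rat 24 or sham rat 38. Of 13 beta and gamma subunits 2 were higher and 3 lower in the cortex (8 called without TBI rat 24, and 3 without the 8 libraries, where Gnb1 and Gnb3 were lost), where Gng8 changed by 0.46 ± 0.11 and Gng4 by -0.40 ± 0.045, and 4 were higher and 3 lower in the thalamus, where Gng5 and Gnb4 changed by 0.35 ± 0.071 and 0.34 ± 0.059.

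Enzymes and channels downstream of the G proteins moved both ways. Of 9 adenylyl cyclases, 2 were higher (Adcy4 and Adcy7) and 4 lower in each region. Adcy1, a calmodulin-stimulated cyclase of neurons, changed by -0.34 ± 0.061 in the cortex and by -0.87 ± 0.098 in the thalamus, Adcy7 by 0.57 ± 0.097 in the cortex and Adcy4 by 0.99 ± 0.12 in the thalamus. Without the 8 libraries the cortical calls of Adcy4 (adjusted p = 0.0976) and Adcy2 were lost. Of 3 phospholipase C beta genes tested, Plcb3 was higher in both regions (0.44 ± 0.095 and 0.41 ± 0.078), Plcb4 lower in both (-0.54 ± 0.081 and -0.61 ± 0.091) and Plcb1 lower in the cortex (-0.39 ± 0.062), and Plcb3 in the cortex was not called without the 8 libraries (adjusted p = 0.0719). Of 4 genes for G protein-gated potassium channels (GIRK), 3 fell in each region: Kcnj9 by -0.39 and -0.66, Kcnj3 by -0.48 and -0.59 and Kcnj6 by -0.28 and -0.47, the cortical Kcnj6 call being lost in the fit over all libraries (adjusted p = 0.0728). Of 8 activators of G protein signalling none was called in the cortex, and in the thalamus Rasd2 was lower (-0.58 ± 0.074) and Gpsm2 higher (0.26 ± 0.072), the latter not called without the 8 libraries (0.27, adjusted p = 0.0731). Of 6 receptor kinases and arrestins, Adrbk1 was lower in the cortex (-0.17 ± 0.041), and in the thalamus Adrbk1 (-0.22 ± 0.050) and Grk6 were lower and Grk4 higher. In the cortex Adrbk1 was not called without the 8 libraries (adjusted p = 0.0546). In the thalamus Adrbk1 alone was called without the 8 libraries or without any one of TBI rats 45 and 63 and sham rats 50 and 55, and Grk6 was not called under either scaling.

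As the files list them, 6 of the 10 members lie on chromosome 13: Rgs2 at 65830460 to 65834020, Rgs8 at 76035375 to 76109626, Rgs16 at 76128744 to 76150543, Rgs5 at 92595206 to 92634887, Rgs4 at 92682947 to 92689247 and Rgs7 at 97559678 to 98000343. Rgs10 lies on chromosome 1 at 206828283 to 206870538, Rgs3 on chromosome 5 at 82602529 to 82690344, Rgs9 on chromosome 10 at 97225540 to 97298645 and Rgs14 on chromosome 17 at 11886257 to 11901352. The second Rgs9 locus was the only named locus that overlapped a member, so the other values are not shared with another named gene.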

How the data were processed

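Stranded libraries of polyadenylated RNA were sequenced from 24 samples. Per the labels and the study's methods, the authors aligned reads with TopHat2 2.0.11 and Bowtie2 2.2.2 and assembled transcripts with Cufflinks 2.2.1. The labels name the build Rnor_5.0 and the methods another for the genome, so no sequence was read by the files' coordinates. The authors deposited a signal per locus and library: fragment counts divided by a size factor, with replicates kept apart. From these values, log2(value + 1) was fitted with limma 3.58.1 in R 4.3.3 (lmFit, eBayes with a mean trend), leaving out unnamed loci and those whose mean in the fitted libraries was under 10. Unnamed loci held 1.90% to 2.23% of the values. P-values are two-sided, adjusted by Benjamini-Hochberg over all loci tested, with a threshold of 0.05. The fragments per library were taken as the sum of its values divided by its smallest value above 0, of which low values (under 50 such steps) were whole multiples within 0.02. No count model was run on these, and counting error was not modelled separately.

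The 4 fits were TBI against sham in each region, thalamus against cortex in sham-operated rats, and the interaction over all 24 libraries. The 2 TBI comparisons share no library with each other, but each shares its sham-operated group with the regional comparison, and both enter the interaction. Alternatives were scaling (TMM, upper quartile), filters, pseudocounts, limma-voom, a threshold of 0.01, a fit over all libraries, a replicate block and leaving out each library. Leaving out the 8 libraries rich in choroid plexus markers (sum over 10000) or striatal markers (over 1.5 times the group median) was chosen after seeing the data. The regions were paired by the rat whose number their titles share: the correlation of their deviations from the group means had a median of 0.187 over 12 rats and exceeded 0.1 in 10. All 10 members were named, and from each pathway list the 2 genes with the largest called change and no overlap between groups in each region. Other pathway genes were named after their values were seen. The members and lists were chosen with earlier results of these data known. The test was checked on simulated data.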

Additional observations from a re-analysis of the deposited data

Results flagged for a closer look

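Rgs9 in TBI rat 24 stood apart from the other TBI cortex libraries, at 1031 normalized counts against 147.8 ± 42.7 (SD, n = 5), with a gap to its neighbour of 0.893 of the range of the group. In sham thalamus, rat 26 stood apart at 872 against 285 ± 116 (n = 5), with a gap of 0.627 of the range. Of 40 groups examined (10 members in 4 groups), chance alone would mark about 1 in 20, and these were the only 2.

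The effect of injury differed between thalamus and cortex by the interaction test for 3 members: Rgs3 (-0.70), Rgs16 (-1.08) and Rgs10 (0.80). It also differed for Rgs1 (1.24 ± 0.28, adjusted p = 0.00776), which rose in both regions, although without the 8 libraries rich in choroid plexus or striatal markers the interaction was not called (0.95, adjusted p = 0.0538). Of the pathway genes, only those with the 2 largest called changes and no overlap in a region were examined one by one. That choice, which also took in Rgs1, used values that enter the interaction and so favours a call. The calls are therefore descriptions. Over all loci the interaction was called positive for 2.72% and negative for 4.54%. Among these it differed for Adcy1 (-0.53 ± 0.12, adjusted p = 0.00781), Rasd2 (-0.60 ± 0.11, adjusted p = 0.00203) and Plcb1 (0.51 ± 0.12, adjusted p = 0.0134, not called at a threshold of 0.01). Plcb1 fell in the cortex and changed by 0.11 in the thalamus (adjusted p = 0.423). In the full lists the interaction was also called for 1 alpha subunit (negative), 1 beta or gamma subunit (positive) and 1 other adenylyl cyclase (positive).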

How the results depend on the processing

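Of 880 values of the 10 members over 4 comparisons and all alternatives, 852 kept direction and call. Both scalings, the filters, the pseudocounts, limma-voom and the fit over all libraries changed none. At a threshold of 0.01 the regional calls of Rgs4 and Rgs7 were lost, and the loci called fell to 2436 of 4531 in the cortex, 3429 of 5516 in the thalamus and 404 of 1138 for the interaction. Leaving out single libraries or rats gave -0.032 to 0.067 for Rgs5, -0.0017 to 0.085 for Rgs10 and -0.013 to 0.16 for Rgs14 in the cortex, and -0.027 to 0.13 for the interaction of Rgs7, none called, and 690.0 to 1204 loci for the interaction (690.0 without TBI rat 24, 695 without sham rat 50). Without the 8 libraries rich in choroid plexus or striatal markers, 1876 loci were called in the cortex and 489 for the interaction, where fewer samples were tested, and Rgs14 in the cortex was -0.15, the interaction of Rgs4 -0.13 and that of Rgs14 0.0058, none called. With the replicate block (paired by rat), 1612 loci were called for the interaction and 9810.0 between regions, and beyond Rgs5 and Rgs8 no member's call changed.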

Other observations

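Other RGS genes also differed between the regions of sham-operated rats: of 9 tested, 2 were called higher and 5 lower in the thalamus. Of all loci tested, 33.9% were called higher and 28.3% lower, so such a difference was common. Rgs12, a large scaffold, was 2653 ± 317 (SD, n = 6) normalized counts in sham cortex and 687 ± 66.3 in sham thalamus, a log2 difference of -1.95 ± 0.082 (adjusted p = 1.11e-11). Rgs18, a regulator of platelets and other blood cells, was 48.0 ± 12.1 in the cortex and 5.39 ± 2.46 in the thalamus (-2.97 ± 0.27, adjusted p = 9.47e-08). Its sham thalamus values, 2.97 to 10.0, lay near the floor of 3 fragments, so the size of this difference is uncertain. Rgs20, a Gz regulator, differed by -0.75 ± 0.076 (adjusted p = 4.05e-07). Rgs11, an R7 member known from the retina, differed the other way, by 1.06 ± 0.12 (adjusted p = 1.57e-06), as did Rgs22, by 1.83 ± 0.20 (adjusted p = 7.73e-07). All these genes are named after their values were seen.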
